A study of Mus musculus with 2 samples.

Results

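The genes described here are the transcriptional repressors Hes1, Hes5, Hes6, Hes7, Hey1, Hey2 and Heyl, with Dtx1, Nrarp and Ptcra, 10 genes listed as Notch response genes. Most are textbook direct targets of Notch, while Hes6 is known as an inhibitor of HES1 and not as a classical Notch target. Around them the peaks of a Notch1 chromatin immunoprecipitation experiment with sequencing (ChIP-seq) were collected: every peak that overlapped the gene body or lay within 50 kb of any annotated transcription start site of a gene. The rule took 6 of the 5913 peaks in the list, 1 each for Hes1, Hes5, Hes7, Hey1, Hey2 and Dtx1, and none for Hes6, Heyl, Nrarp and Ptcra. The experiment used primary gamma delta T cells, T lymphocytes whose antigen receptor is built from a gamma and a delta chain, taken from thymus at postnatal day 0 to 3, and the mice were C57BL/6 of wild-type genotype. There was 1 library precipitated with a rabbit monoclonal antibody against Notch1 (clone D1E11) and 1 input library without antibody from the same kind of cells, whose signal is not analysed here. The stated purpose was to find where the Notch1 intracellular domain binds. The Notch1 library was not replicated, so no value below carries an error between animals or preparations, and no test was made.

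When a Notch receptor is cleaved, its intracellular domain enters the nucleus and joins the DNA-binding protein RBPJ and a Mastermind co-activator on DNA. Hes1, Hes5 and the HEY genes are textbook outputs of that complex. HES and HEY genes encode basic helix-loop-helix repressors that bind E-box and N-box sequences and, in the HES proteins, recruit Groucho (TLE) co-repressors. Dtx1 encodes Deltex1, a ubiquitin ligase that binds the Notch intracellular domain, Nrarp encodes a small ankyrin-repeat protein that feeds back on the Notch complex, and Ptcra encodes the pre-T cell receptor alpha chain of the alpha beta lineage.

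The Hes1 peak is shown because it was the only one of the 6 that covered a start site of a member. It lay on mouse build mm10 at chr16:30064211-30064730, and its central 300 bases, chr16:30064321-30064620 on the plus strand, follow, with the E-box CACGTG in capitals.
Hes1 peak: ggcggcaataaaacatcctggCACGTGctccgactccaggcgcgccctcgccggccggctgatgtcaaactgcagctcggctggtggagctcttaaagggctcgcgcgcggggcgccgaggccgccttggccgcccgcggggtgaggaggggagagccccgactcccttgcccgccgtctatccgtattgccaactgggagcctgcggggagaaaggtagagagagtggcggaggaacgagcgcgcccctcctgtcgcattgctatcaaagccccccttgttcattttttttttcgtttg
The palindrome CACGTG, a sequence class that HES, HEY and MYC proteins can bind, began at base 132 of the peak. A second CACGTG lay in the peak upstream of Hey1, in a stretch at chr3:8708713-8708742 on the plus strand. A copy of TGGGAA, the core of the RBPJ site, was present in the peak downstream of Hes5 only, at chr4:155000743-155000772 on the minus strand. Both stretches are given with the motif in capitals.
Hey1 peak: tcatgttacagtCACGTGtgtacatatctg
Hes5 peak: cccggggaatgaTGGGAAactgctgcggca
The peak near Dtx1 is shown by its central 60 bases, chr5:120670684-120670743 on the plus strand, because all of it is soft-masked repeat sequence.
Dtx1 peak: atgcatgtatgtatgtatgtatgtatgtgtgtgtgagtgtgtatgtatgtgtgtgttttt

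Of the 10 genes 6 had a peak under the 50 kb rule, beside 31.7% of all 21938 protein-coding genes. The nearest peak lay a median of 40.4 kb from a start site of a member, beside 118 kb over all protein-coding genes. The windows covered 1.04 Mb together and held 5.77 peaks per Mb, beside 2.23 per Mb over the nuclear chromosomes without assembly gaps. The windows all lay around genes, while the chromosomes include stretches far from any gene. The density in such windows around all genes was not computed. These figures describe 10 genes and 6 peaks, and they depended on the window. Within 5 kb or in the gene body 1 member had a peak, beside 13.9% of all genes, and within 20 kb 2 had one, beside 20.2%. The second of these, Dtx1, counted through the start site of a retained-intron transcript, and from its protein-coding start site the peak lay 41.1 kb away. Where a peak counted only for the protein-coding gene with the nearest start site, Hes1 and Hey1 remained, 2 of 10 beside 15.2% of all genes. Between 20 and 50 kb lay the peaks of Hes5, Hes7, Hey1 and Hey2, and those of Hes5, Hes7 and Hey2 sat at other genes.

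The members differed widely in how near a peak lay. Only 2.17% of protein-coding genes had a peak as near as Hes1, by the start site of a non-coding transcript that the peak covered. From the protein-coding start site of Hes1 the peak lay 0.61 kb away. The share was 13.0% for Dtx1 (by the retained-intron start site), 19.9% for Hes7, 26.5% for Hes5, 26.6% for Hey2 and 27.2% for Hey1. For the members without a peak in the window it was 38.6% for Nrarp, 47.4% for Ptcra, 67.9% for Hes6 and 68.5% for Heyl. The surroundings differed too. No other protein-coding gene started within 50 kb of Hes1 or Hey1, while 1 did so for Hey2, 3 each for Hes5, Hes6 and Heyl, 4 for Dtx1, 5 for Nrarp and 6 each for Hes7 and Ptcra. The 2 members alone in their windows kept their peak under the nearest-gene rule. That follows largely from the rule, since no other protein-coding gene started in those windows to take the peak.

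**Figure D1:**
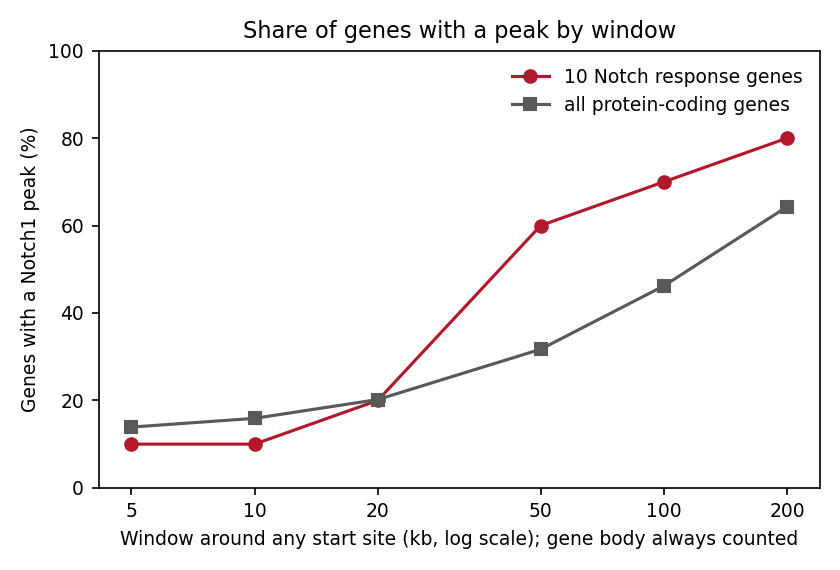
Share of genes with a Notch1 peak (vertical axis, percent) in the gene body or within a given distance of any start site (horizontal axis, kb, log scale), for the 10 Notch response genes (circles) and all protein-coding genes (squares). Of the 10 members 1 had a peak at 5 kb and 6 had one at 50 kb, beside 13.9% and 31.7% of all genes.

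Among the HES repressors, Hes1 had the peak of highest score of the 6, at 1057. The score is the authors' own value from their peak caller, on a scale that the sources used here do not state, and serves only to rank peaks within the list. The Hes1 peak was 520 bp wide and ranked 854 among 5910 nuclear peaks, so that 14.4% of peaks scored higher. It covered the start site of a non-coding Hes1 transcript at 30064384 and ended 0.61 kb upstream of the protein-coding start site. It overlapped an annotated exon of Hes1, counted as promoter (within 1 kb of where a protein-coding gene starts), and fell in the window of no other protein-coding gene. Its GC content was 63.5%, beside a median of 43.9% over all nuclear peaks, only 19.8% of which counted as promoter. The median over promoter peaks alone is not given here. Of the Hes1 peak 18.8% was soft-masked. Among the 1173 promoter peaks of the list it ranked 203.

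A further peak lay 98.0 kb downstream of a Hes1 start site, outside the window, at chr16:30164294-30164666. Its score of 717 was close to the median of all nuclear peaks, 718. No gene overlapped it, and Hes1 was the protein-coding gene with the nearest start site of any transcript. It was 75.6% soft-masked and held 0 copies of TGGGAA.

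Hes5, a repressor best known from neural progenitors, had its nearest peak 39.6 kb downstream, at chr4:155000567-155000899. This peak scored 724, and 48.4% of nuclear peaks scored higher. It lay over an exon of Plch2, which encodes a phospholipase C, and 4.41 kb from a start site of that gene. The windows of 3 protein-coding genes held it.

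Hes7, a repressor of the segmentation clock of the embryo, had a peak 24.7 kb upstream, at chr11:69095313-69095734. With a score of 920 it was second to the Hes1 peak, and 23.7% of nuclear peaks scored higher. It lay 96 bp from a start site of Per1, a gene of the circadian clock, in an intron of Per1, and the windows of 8 protein-coding genes held it. Farther upstream, peaks lay 82.2, 108 and 153 kb from Hes7 with scores of 640, 899 and 828, and each had another gene nearer (Ctc1, Ctc1 and Slc25a35).

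Hes6 had no peak within 200 kb. Its nearest peak lay 229 kb away in an intron of Ramp1, at chr1:91184139-91184462, with a score of 734.

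The HEY genes encode repressors known best from heart and vessel development. Hey1 had an intergenic peak 41.1 kb upstream, at chr3:8708392-8708792, with a score of 655, and 70.4% of nuclear peaks scored higher. This was the farthest of the 6 peaks from its gene, and Nrarp, at 74.3 kb, was the nearest member outside the limit. No gene overlapped the Hey1 peak, and Hey1 was the protein-coding gene with the nearest start site of any transcript. It was 28.9% soft-masked, and it carried a run of CA repeats, so that 10.3% of its 32-base strings recurred elsewhere on the chromosomes. The most frequent of these strings stood at 1039301 places.

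Beyond the window of Hey1 stood a group of 3 peaks, 99.2, 99.5 and 101 kb upstream of its start site, with Hey1 still the nearest protein-coding gene. Their scores were 631 at chr3:8766458-8766799, 1579 at chr3:8766805-8767315 and 1266 at chr3:8767832-8768190. Only 3.81% of nuclear peaks scored above the middle peak, so it stood higher in the list than any of the 6 peaks inside the windows. It was 5.1% soft-masked and none of its 32-base strings recurred, and the same 0% held for the other peaks of the group. The middle peak and the one scoring 1266 each held 1 copy of TGGGAA, in the following stretches at chr3:8767280-8767309 (plus strand) and chr3:8768169-8768198 (minus strand), with the core in capitals.
Middle peak: aaatgttgaggtTGGGAAaggggaagagaa
Peak scoring 1266: aatgaagctcccTGGGAAggatagaagcaa
These peaks were singled out after their values were seen.

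Hey2 had a peak 39.6 kb downstream of its nearest start site, at chr10:30802038-30802377, and 40.4 kb from its protein-coding one. Its score of 649 was the lowest of the 6, and 73.1% of nuclear peaks scored higher. It lay in an intron of Ncoa7, a nuclear receptor co-activator gene, 730 bp from a start site of that gene. Heyl had no peak within 200 kb, and its nearest lay 234 kb away over an exon of Mycl, at chr4:122998865-122999268, with a score of 652.

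Dtx1 had a peak at chr5:120670562-120670865, with a score of 726, and 48.0% of nuclear peaks scored higher. The distance of 11.2 kb was measured from the start site of a retained-intron transcript near the 3' end of Dtx1. From the protein-coding start site the distance was 41.1 kb, and the peak lay 9.34 kb beyond the gene. It sat in an intron of Rasal1, a gene of a Ras GTPase-activating protein, 7.73 kb from a start site of Rasal1. The whole peak (100%) was soft-masked, a state shared by 0.220% of nuclear peaks, and 16.5% of its 32-base strings recurred, the most frequent of them 12 times. How reads from such sequence were placed is not given in the sources used here, and the part of the repeat in this score was not tested.

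Nrarp had no peak within 50 kb. The nearest, 74.3 kb downstream at chr2:25255088-25255501, scored 1000 (17.9% of nuclear peaks scored higher) and covered start sites of Ndor1 and Tmem203, and it lay in the windows of 18 protein-coding genes. Ptcra had none either. Its nearest peak, 107 kb upstream at chr17:46870572-46870954, was intergenic and scored 519, with 95.6% of nuclear peaks above it. A promoter peak of Cul7 lay 113 kb downstream of Ptcra and scored 765.

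**Figure D2:**
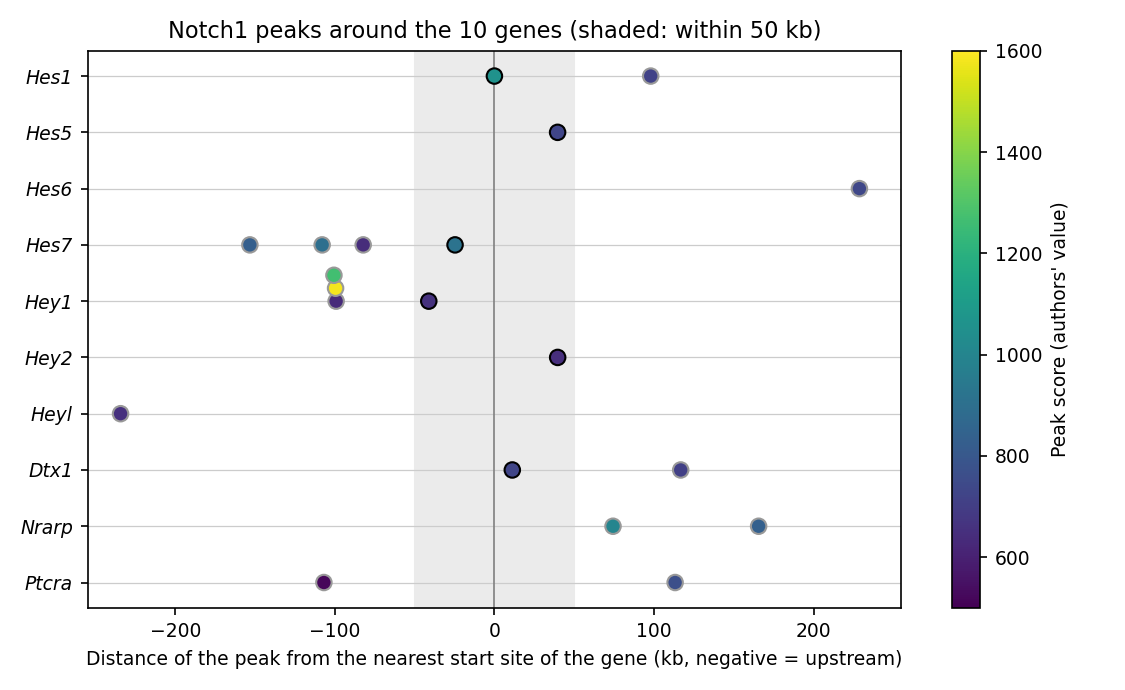
Notch1 peaks within 200 kb of each gene, or the nearest peak where there was none, by distance from the nearest start site of that gene (horizontal axis, kb, upstream negative). Each point is 1 peak, its fill the score, black rims the 6 peaks inside 50 kb (shaded), and points close together are drawn above one another. Hes1 alone had a peak at a start site, Hes6 and Heyl had none within 200 kb, and the point of highest score is the middle one of the group near 99.5 kb upstream of Hey1.

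By position 3 of the 6 peaks counted as promoter (those of Hes1, Per1 and Ncoa7), beside 19.8% of nuclear peaks. The 6 were taken by nearness to genes, while the nuclear peaks include those far from any gene, so the sets are unlike. The 6 scores were spread through the list. Their median score was 725, beside 718 over all nuclear peaks, and 2 of them, at Hes1 and Hes7, lay in the upper quartile, which began at 904. The Hey1 and Hey2 peaks lay below the median of the list, and above its lower quartile of 645 by a small margin.

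**Figure D3:**
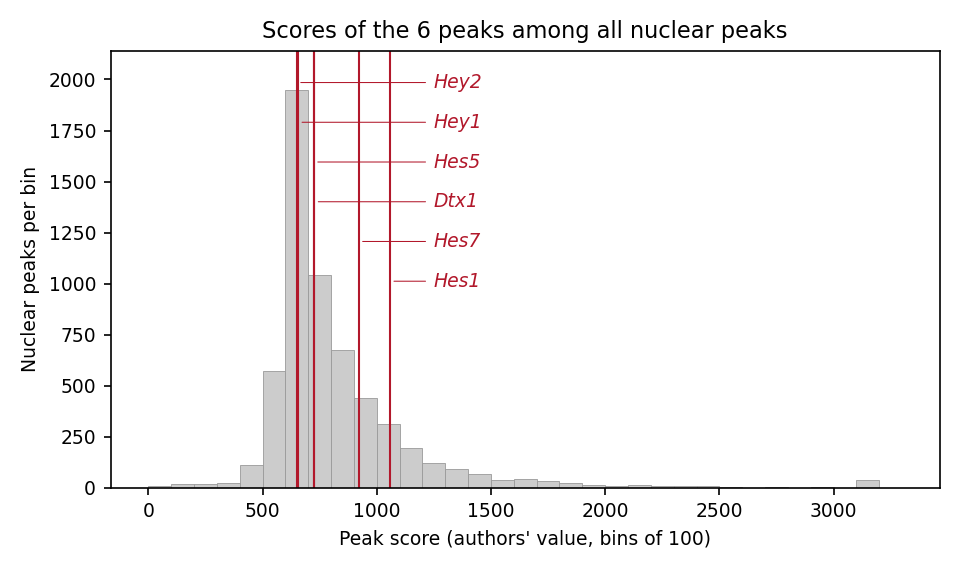
Number of nuclear peaks (vertical axis) by peak score (horizontal axis, authors' value, bins of 100), with red lines at the scores of the 6 peaks in the windows. The Hey2 and Hey1 lines, at 649 and 655, fall in the fullest bin, the Hes5 and Dtx1 lines, at 724 and 726, in the next, and the Hes1 line stands at 1057.

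Base composition varied among the 6 peaks. GC content was 63.5% at Hes1, 57.7% at Hes5, 53.8% at Hes7, 44.4% at Hey2, 43.6% at Hey1 and 36.2% at Dtx1, so that the Hey1 and Hey2 peaks lay near the median of the list and the Hes1 and Dtx1 peaks at opposite ends of the 6. Apart from Dtx1 (100%) and Hey1 (28.9%), the soft-masked share was between 5.2% (Hes7) and 18.8% (Hes1), beside a median of 15.5% over nuclear peaks. The sequence was then scanned on both strands. TGGGAA was present in 1 of the 6 (Hes5), beside 29.5% of all nuclear peaks. With 100 bp added on each side it was present in 2, since a copy lay 68 bp outside the Hes1 peak, beside 41.5%. The nearest copies lay 117 bp from the edge of the Dtx1 peak, 191 bp from that of Hey2, 203 bp from that of Hes7 and 246 bp from that of Hey1. The longer RBPJ consensus (CGTGGGAA, TGTGGGAA, CGTGAGAA or TGTGAGAA, 2 of which contain the core) was present in 0 of the 6, beside 6.18% of nuclear peaks. CACGTG was present in 2 (Hes1 and Hey1), beside 5.62%. CACGCG, a further sequence that HES proteins bind, was present in 0, beside 4.23%. The RUNX strings TGTGGT and TGCGGT were present in 2 (Hes5 and Hes7), beside 30.5%, and the ETS strings CCGGAAG and CCGGAAA in 0, beside 5.18%.

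Promoters of 4 of the 7 members scanned held TGGGAA, the core of the RBPJ site, and no peak was called there. Windows from 250 bases before to 50 after a start site, from RefSeq on GRCm38.p6, matched 7 of the 10 genes (not Hes1, Hey1 or Heyl). These genes had 8 windows, since Hes6 had more than 1. The counts below are of genes with a match in any window, while the shares beside them are of single windows. TGGGAA was present in those of Hes5, Hes7, Hey2 and Ptcra, 4 of 7, beside 25.6% of the 32851 windows on nuclear chromosomes, and absent from those of Hes6, Nrarp and Dtx1. The longer consensus was present at Hes5, Hes7 and Hey2, 3 of 7, beside 4.30% of windows. The stretches around the cores are printed on the strand of the gene, with the core in capitals, as TTCCCA where it reads on the opposite strand.
Hes5, 226 bases before the start site, chr4:154960685-154960714, plus strand: agggcgagcgcgTTCCCAcagcccggacat
Hes5, 82 bases before, chr4:154960829-154960858, plus strand: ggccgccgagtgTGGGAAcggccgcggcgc
Hey2, 207 bases before, chr10:30842973-30843002, minus strand: tgcgcggtggcaTTCCCAcgcctctgccaa
Hey2, 3 bases before, chr10:30842769-30842798, minus strand: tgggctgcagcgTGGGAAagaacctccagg
Hes7, 180 bases before, chr11:69120261-69120290, plus strand: tcctcccctcacTTCCCAcatttggggcta
Ptcra, 84 bases before, chr17:46763779-46763808, minus strand: cccagaaagcacTGGGAActagggggtaga
Ptcra, 32 bases before, chr17:46763727-46763756, minus strand: gggtctgtgatcTGGGAAgcagtgtagtag
Hes5 and Hey2 each held 2 cores that also matched the longer consensus, the Hes7 core matched it as well, and the Ptcra cores did not. Head-to-head pairs, with TGGGAA on both strands and 15 to 17 bases between, were present in 0 of the 7, beside 0.0183% of windows, and pairs of TGNGAA in 0, beside 0.152%. Over 1 kb on each side of the start site TGGGAA was present in all 7, beside 85.8% of such windows. From the protein-coding start sites of these 4 genes the nearest peaks lay 39.6 kb (Hes5), 40.4 kb (Hey2), 24.7 kb (Hes7) and 107 kb (Ptcra) away. Among the remaining strings, CACGTG was present at Nrarp (7.15% of windows hold it), CACGCG at Dtx1 and Hes7 (9.27%), the RUNX strings at Hes6 (22.4%) and the ETS strings at Hes6 and Hes7 (11.4%). A match describes the sequence only, and a peak list cannot show binding below the authors' threshold.

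Other genes of the pathway were taken from 4 lists and read by the same 50 kb rule, beside the 31.7% of all genes. Of 9 relatives and partners of HES and HEY proteins 5 had a peak. Bhlhe40, which encodes a related repressor of activated T cells, had one over a start site (score 1089), Id1 had one at 42.8 kb (1107), Id3 at 25.6 kb (918), Hes2 at 23.3 kb (849) and Id2 at 3.05 kb (657). The ID proteins lack a basic region and hold helix-loop-helix partners off DNA. Of 6 Groucho co-repressor genes found in the annotation 2 had a peak, Tle1 over a start site (1352) and Tle3 at 184 bp (602). Of the other 4 Deltex family genes 1 had peaks, Dtx3, which had 2 in the window. The nearer lay at 36.3 kb and the one of higher score (1164) at 49.9 kb.

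Of 23 other genes that answer to Notch in T cells 15 had a peak in the window, or 65.2%. Within 5 kb of a start site, the gene body not counted, 5 of the 23 had one. Bcl11b counted only through its gene body, with its nearest peak 92.5 kb from a start site. The highest scores were those of Runx3 (2310, at 40.0 kb), Lef1 (1294, in the gene body), Lfng (1224, at 10046 bp), Ccnd3 (1102, at 14.1 kb), Cd3e (1042, at 31.6 kb) and Tcf7 (997, at 47.6 kb). Runx3, Lef1 and Tcf7 encode T cell transcription factors, Lfng a glycosyltransferase that modifies Notch receptors and Ccnd3 a cyclin. The Runx3 peak scored above every peak within 200 kb of the 10 members. Notch1, Notch3 and Myc had no peak in the window.

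Marker genes were read by the same rule, but their peaks do not measure expression and cannot establish the labelled cell type. Of 10 genes listed as markers of gamma delta T cells 9 had a peak, beside 31.7% of all genes. Cd3e, Cd3d, Cd3g and Cd247 among them encode CD3 chains that all T cells share, and Cd3d and Cd3g shared 1 peak. Trdc, the constant region of the delta chain, had none in the window, with its nearest peak at 81.8 kb. Trac, the constant region of the alpha chain, had 4, the highest with a score of 3100. In the list 36 peaks had this same score and 4 scored higher. The counts were 2 of 7 for alpha beta thymocytes (28.6%), 2 of 5 for B cells, 1 of 4 for myeloid cells and 1 of 4 for thymic epithelium.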

How the data were processed

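One peak list was analysed, from the Notch1 ChIP-seq library; the input library is not analysed here. Fixation was 5 min in 0.5% formaldehyde and the PCR had 18 cycles, per the labels' protocols. Build mm10, SAMtools 0.1.18 and Bowtie 1.0.0 are named in the submitters' processing notes. The deposited score of each peak is the authors' value; the peak names point to MACS, and its version, its settings, any use of the input as control and the handling of duplicate reads were not given in the sources used here. The read depth is unknown.

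Intervals were converted to 1-based positions and read on GRCm38 with GENCODE M21 (Python 3.11.15, pandas 2.3.3, pysam 0.24.0). Of 5913 peaks 5910 were nuclear, and 0 passed a chromosome end. An overlap of 1 bp counted. Peaks within 1 kb of where a protein-coding gene starts were classed as promoter, and the others by overlap with its exons or introns. Strings were matched exactly. Recurrence was counted for 32-base strings over the nuclear chromosomes. Window and string functions were tested on simulated data. All 10 members were named, with up to 6 genes by score from each related list and the promoter peaks next to that of Hes1 in score. The members and lists were chosen with earlier results of these data known. Alternatives changed the window, start sites, overlap, score, repeat content, nearest-gene rule and scanned interval.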

Additional observations from a re-analysis of the deposited data

How the results depend on the processing

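The count of 6 members with a peak, and of 6 peaks, was the same with start sites of protein-coding transcripts only and with the peak midpoint, and, for the members, without peaks in which at least 50% of the 32-base strings recurred, a limit that none of the 6 peaks reached and an alternative chosen after seeing the data. Both counts were 5 without peaks at least 50% soft-masked, which dropped Dtx1 (29.9% of all genes). With a score no lower than the median they were 4, which dropped Hey1 and Hey2 (19.3%). They fell to 1 at 5 kb, and to 2 each at 20 kb, in the upper quartile of score (10.8% of all genes) and with nearest start sites. At 100 kb 7 members had a peak (46.2% of all genes), from 11 peaks. The core was present in 2 of the 6 peaks with 100 bp added on each side and in 1 in the central 200 bp. In promoters of 1 kb on each side it was present in 7 of the 7 members scanned. Pairs of TGNGAA, also added later, were present in 0 of the 7, as were pairs of TGGGAA. The median distance to the nearest peak was 41.1 kb from protein-coding start sites, where Dtx1 moved from 11.2 to 41.1 kb. No paired analysis was possible because there is 1 Notch1 library, and for the same reason no library could be left out. The unknown depth and the authors' threshold limit what the absence of a peak shows.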

Other observations

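The promoter peaks next to that of Hes1 in score were listed. The 3 with the next higher score were those of Lrguk, BC005537 and Tnfrsf1b (1058 to 1060), and the 3 with the next lower score those of Cmss1, Zfp329 and Man2c1 (1055 to 1056). All 7 peaks, that of Hes1 included, held 0 copies of TGGGAA, which was present in 29.5% of all nuclear peaks. Tnfrsf1b encodes a receptor for tumor necrosis factor. Their GC content ranged from 31.9% to 61.1%, below the 63.5% of the Hes1 peak.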
